A study of Mus musculus with 18 samples.

Results

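Receptors through which hepatocytes sense foreign compounds and hormones, 10 in all, were followed across the mRNA arrays of the series. They are Nr1i2, Nr1i3, Ahr, Rxra, Nr1h3, Rara, Thra, Thrb, Nr3c1 and Esr1, chosen as a list of symbols and found through the accession each probe carries. All 10 of the 10 listed genes were on the array, with 20 of its 39429 probes, and all 10 were among the 24808 genes tested of 32451 measured. The livers came from male C57BL/6 mice aged 6 weeks that went 12 h without food, were then given 1 oral dose of saline (control) or of monocrotaline at 270 mg/kg (MCT 270) or 330 mg/kg (MCT 330), and were killed 48 h later. Each group held 8 mice, and 3 mRNA arrays were labelled as 3 mice of each group. A toxin of Crotalaria plants, monocrotaline is oxidised by hepatic P450 enzymes to a reactive pyrrole, and sinusoidal endothelial cells are its best known hepatic target. The microRNA arrays of the same livers were not used here.

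All but Ahr are nuclear receptors, proteins that bind DNA and switch genes on or off when a small lipophilic molecule enters their pocket, while Ahr encodes a sensor of another family that works together with Arnt. Several of them, the products of Nr1i2, Nr1i3, Nr1h3, Rara, Thra and Thrb among them, bind DNA as a dimer with the product of Rxra, the retinoid X receptor alpha. In hepatocytes they set the capacity for drug metabolism (Nr1i2, Nr1i3, Ahr), sterol and retinoid handling (Nr1h3, Rara), and the responses to thyroid hormone, glucocorticoids and oestrogen (Thra, Thrb, Nr3c1, Esr1).

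All values are log2 processed spot signal minus the log2 of the array's 75th percentile, so that 0 marks the 75th percentile. A level can be compared between samples for the same probe but not between probes, so no order of the receptors by level is given. The 9 arrays held 5 distinguishable samples. Replicates 2 and 3 of each group shared a pattern of spot deviations, with a correlation of 0.734 to 0.921 over 2281 spots, against 0.0438 to 0.543 for all other pairs. They differed by a robust SD of 0.0416 to 0.0534 log2 units, less than the 0.0711 to 0.110 between repeated spots of a probe on the same array, and were counted as 1 sample. MCT 330 replicate 1 differed from replicates 2 and 3 by 0.0776 to 0.0793, which was 0.984 times the spot noise of these arrays with replicate 3 and 1.005 times with replicate 2, and was joined to them through replicate 3, although its spot deviations correlated with theirs at only 0.278. The control and MCT 270 groups therefore had 2 samples each and MCT 330 had 1, whose spread was taken from the other groups. The p-values measure the spread between these samples, which may be technical. MCT 330 arrays were scanned in sessions that held no other group, so scan session and the higher dose cannot be told apart.

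Hepatocyte RNA was present throughout: 8 of 8 hepatocyte markers, Alb and Apoa1 first, were well above background on all 9 arrays, and their summed scaled signal was 2257 to 2525 in control, 1989 to 2467 in MCT 270 and 1993 in MCT 330. Of these markers, 2 passed as lower in MCT 330 against control, where 23.9% of all genes did. Their median log2 fold change was -0.37, against -0.25 over all genes. Neutrophil markers, S100a8 and S100a9 first, summed to 8.65 to 11.6 in control, 8.21 to 9.14 in MCT 270 and 40.7 in MCT 330. Of the 8, 5 were detected (well above background) on fewer than all control arrays and entered the test only through treated groups. Of the other 3, 2 passed as higher in MCT 330 against control, where 9.51% of all genes did. Markers of recruited monocytes summed to 2.38 to 2.5005, 3.88 to 4.89 and 11.04 in the same order. Of the 3 detected on all control arrays, 2 passed as higher in MCT 330, beside the same 9.51% of all genes. Markers of liver sinusoidal endothelial cells, Stab2 and Stab1 first, summed to 29.3 to 31.4 in control, 11.04 to 12.6 in MCT 270 and 8.61 in MCT 330, with 7 of 8 lower in MCT 330 against control. Stellate cell markers summed to 27.8 to 29.3, 10.98 to 13.5 and 9.35, and Kupffer cell markers to 20.7 to 28.7, 12.2 to 14.1 and 8.49. The part of these shifts in the receptor results below was not tested, and in whole liver RNA fewer cells of a type and less RNA per cell cannot be told apart.

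In MCT 330 livers, 3 of the 10 receptors were lower than in control and none was higher: Nr1i3, Rxra and Thra (limma, Benjamini-Hochberg adjusted p under 0.05 over all genes). Over all genes, 33.5% passed in that comparison, 23.9% as lower and 9.51% as higher, so the receptors' share lay near that of genes at large. Their median log2 fold change was -0.58, against -0.25 over all genes. The split of all calls into higher and lower moved with the scaling: 28.4% of calls were higher with the 75th percentile, 42.2% after quantile normalization, 49.0% after normexp and quantile normalization, and 54.6% after scaling by the median. At an unadjusted p under 0.05, 5 of 10 receptors were lower and none higher, where 47.2% of all genes passed, 32.6% as lower and 14.6% as higher. In MCT 330 against MCT 270, 3 of 10 receptors were lower, Nr1i3, Rxra and Thrb, where 22.1% of all genes passed, 17.1% as lower and 5.03% as higher. Under the 4 scalings in the same order, 22.7%, 38.5%, 49.0% and 50.6% of these calls were higher. Unadjusted, 5 of 10 receptors were lower and none higher, where 39% of all genes passed, 29.1% as lower and 9.99% as higher. In MCT 270 against control no receptor passed, and neither did any of the 24808 genes (0%); at an unadjusted p under 0.05 it was 3 of 10 receptors, Thrb and Esr1 higher and Thra lower, against 18.6% of all genes, 9.82% higher and 8.78% lower. The comparisons share samples, so a receptor's 3 fold changes are not independent of one another.

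**Figure D1:**
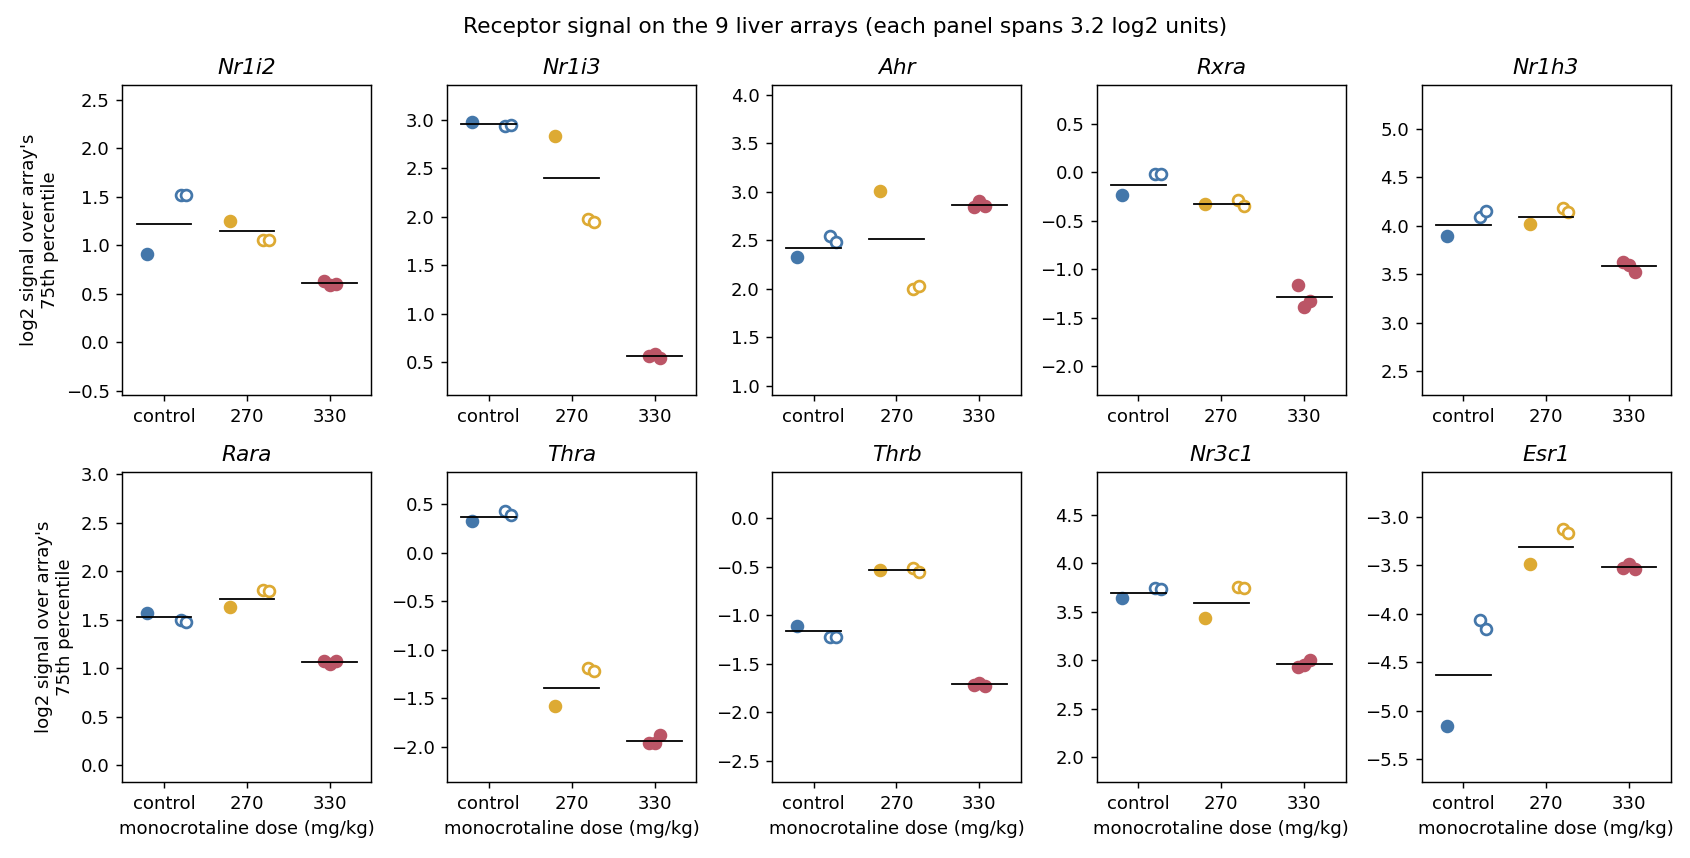
Log2 signal over the array's 75th percentile for the brightest probe of each receptor on each of the 9 arrays, by dose; each panel spans the same number of log2 units. Filled points are the first sample of a group and open points the arrays counted together as the other, all MCT 330 points are counted as 1 sample, and lines are group means. Nr1i3, Rxra and Thra sit lowest in MCT 330, as do Nr1i2, Nr1h3, Rara, Thrb and Nr3c1 by smaller margins from control. Thra is low in both MCT 270 samples too.

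To show the promoters of the receptors called lower, the stretches from 250 bases before to 50 after a RefSeq transcription start (build GRCm38.p6) were searched on both strands for AGGTCA, the half-site bound by many nuclear receptors, AGAACA, a half-site of steroid receptors, CACGTG, the E-box of clock and other factors, and TGACTCA, the AP-1 site. No motif overlapped another in the receptors' windows. The table held 14 such windows for 7 of the 10 receptors; Thra, Ahr and Nr3c1 had none in it. The windows below are those of the receptors called lower that held a match, with matches in capitals. Nr1i3 lies at chr1:171213720-171214019 on the plus strand, the window of Rxra with a match at chr2:27709042-27709341 (plus), and those of Thrb at chr14:17660710-17661009 and chr14:17981394-17981693 (plus).
Nr1i3: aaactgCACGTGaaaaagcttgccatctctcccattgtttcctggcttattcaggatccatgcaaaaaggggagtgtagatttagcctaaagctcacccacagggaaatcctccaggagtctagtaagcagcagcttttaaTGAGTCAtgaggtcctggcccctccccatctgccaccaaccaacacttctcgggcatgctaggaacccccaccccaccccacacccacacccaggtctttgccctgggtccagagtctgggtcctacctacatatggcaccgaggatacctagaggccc
Rxra: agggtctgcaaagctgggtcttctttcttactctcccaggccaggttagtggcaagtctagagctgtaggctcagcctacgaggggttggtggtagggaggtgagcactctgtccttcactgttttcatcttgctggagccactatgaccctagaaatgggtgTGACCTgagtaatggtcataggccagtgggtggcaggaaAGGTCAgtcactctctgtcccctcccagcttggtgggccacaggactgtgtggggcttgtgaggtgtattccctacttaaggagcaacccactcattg
Thrb, first start: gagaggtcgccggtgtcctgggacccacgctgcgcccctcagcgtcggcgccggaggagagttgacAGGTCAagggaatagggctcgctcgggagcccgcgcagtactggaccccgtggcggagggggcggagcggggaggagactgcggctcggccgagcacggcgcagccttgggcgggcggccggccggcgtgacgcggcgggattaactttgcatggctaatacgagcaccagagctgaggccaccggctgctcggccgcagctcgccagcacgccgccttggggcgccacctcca
Thrb, other start: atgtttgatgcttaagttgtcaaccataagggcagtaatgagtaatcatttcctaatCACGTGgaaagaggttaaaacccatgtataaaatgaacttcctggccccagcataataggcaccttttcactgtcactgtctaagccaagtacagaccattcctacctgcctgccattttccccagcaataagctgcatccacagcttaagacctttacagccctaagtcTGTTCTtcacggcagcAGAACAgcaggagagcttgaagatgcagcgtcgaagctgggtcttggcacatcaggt
Nr1i3 held CACGTG 244 bases and TGACTCA, on the reverse strand, 109 bases before its start. Rxra held AGGTCA 48 bases before the start and on the reverse strand 87 bases before it, and its other window held none of the motifs. Thrb held AGGTCA 184 bases before the first of its starts, and CACGTG at 193 and AGAACA at 7 and, reversed, at 23 bases before the other. Receptors not called lower held matches too, with CACGTG and AGGTCA in windows of Rara and AGAACA in that of Nr1i2. Of the 14 windows of the receptors, 4 held CACGTG, among them overlapping windows of Rara that share the site, and 3 held AGGTCA. Among all 32851 windows of this length, AGGTCA occurred in 16.3%, AGAACA in 19%, CACGTG in 7.15% and TGACTCA in 5.2%. A match is a run of letters and not evidence of binding.

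Nr1i3, which encodes the constitutive androstane receptor CAR, a sensor that drives Cyp2b and Cyp2c genes, had, with Thra, the lowest fold change of the 10 in MCT 330 against control. Its levels were 2.98 and 2.94 in control, 2.83 and 1.96 in MCT 270 and 0.56 in MCT 330. The MCT 330 sample lay below every other sample, and the MCT 270 samples stood apart, with one close to control and the other about 1 unit lower. The log2 fold change in MCT 330 against control was -2.39 ± 0.39 (SE; 95% interval -3.42 to -1.37; adjusted p = 0.0156), a level 5.26-fold lower. Against MCT 270 it was -1.83 ± 0.39 (adjusted p = 0.0371), and without MCT 270 replicate 1 it was -1.40 with an adjusted p of 0.119. That call was also lost without control replicate 1 (adjusted p = 0.0518), after quantile normalization (0.0535), with scaling by the median (0.0600) and with no filter on dim probes (0.0923). The dimmer Nr1i3 probe gave the same order, with 2.15 and 2.13 in control, 2.05 and 1.34 in MCT 270 and 0.02 in MCT 330. Its fold change in MCT 330 against control was -2.13 (adjusted p = 0.0154 over all probes). The call of Nr1i3 in MCT 330 against control was kept in all 23 alternatives run, with fold changes of -2.42 to -2.01.

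Nr1i2 encodes the pregnane X receptor PXR, which shares many targets with CAR and is activated by bile acids, steroids and drugs. It measured 0.92 and 1.52 in control, 1.25 and 1.05 in MCT 270 and 0.61 in MCT 330, and the MCT 330 sample was again the lowest. The fold change in MCT 330 against control, -0.61 ± 0.31 on the log2 scale, did not pass (adjusted p = 0.194), and its 95% interval ran from -1.42 to 0.21. With scaling by the median it was -0.22. The control samples alone differed by more than the MCT 270 samples.

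Ahr encodes the aryl hydrocarbon receptor, which binds planar aromatic compounds and induces Cyp1 genes. Its brightest probe read 2.32 and 2.51 in control, 3.01 and 2.01 in MCT 270 and 2.87 in MCT 330, so the MCT 270 samples bracketed all the others. In MCT 330 against control the log2 difference was 0.45 ± 0.45 (adjusted p = 0.470), and 0.83 with scaling by the median (adjusted p = 0.202). The dimmer Ahr probe read -4.26 and -4.80 in control, -3.28 and -4.03 in MCT 270 and -2.17 in MCT 330. There the MCT 330 sample lay above all others, and the log2 fold change was 2.36 ± 0.41 (adjusted p = 0.0181 over all probes). That probe was well above background on 2 of 3 control arrays and on all treated arrays, so it entered the test only through the groups in which it was higher.

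Rxra, the shared partner, measured -0.23 and -0.02 in control, -0.33 and -0.32 in MCT 270 and -1.29 in MCT 330. MCT 330 lay about 1 unit below every other sample, while MCT 270 lay just below control. The fold change was -1.16 ± 0.20 against control (95% interval -1.70 to -0.63; adjusted p = 0.0178) and -0.97 ± 0.20 against MCT 270 (adjusted p = 0.0359), on the log2 scale. The dimmer Rxra probe went the other way, with -1.32 and -1.39 in control, -1.16 and -0.93 in MCT 270 and -1.06 in MCT 330, a difference of 0.29 ± 0.21 in MCT 330 against control (adjusted p = 0.325). The Rxra difference against control also missed the threshold with scaling by the median (-0.78, adjusted p = 0.0655), with no filter on dim probes (adjusted p = 0.0524), with the mean of its probes (-0.44, adjusted p = 0.140) and without MCT 270 replicate 1 (adjusted p = 0.0617). Against MCT 270 the same 4 alternatives gave adjusted p of 0.140, 0.0926, 0.131 and 0.178.

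Nr1h3 encodes LXR alpha, the oxysterol receptor that governs cholesterol export and lipid synthesis. It read 3.89 and 4.12 in control, 4.01 and 4.16 in MCT 270 and 3.58 in MCT 330. The MCT 330 sample was the lowest. The log2 difference of -0.43 ± 0.21 against control did not pass (adjusted p = 0.182), nor did -0.51 ± 0.21 against MCT 270 (adjusted p = 0.153). Against control the difference was -0.20 after quantile normalization, -0.16 after normexp and -0.046 with scaling by the median. Its dimmer probe gave -0.47, nearly the same value.

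Rara encodes the retinoic acid receptor alpha. It read 1.57 and 1.49 in control, 1.63 and 1.80 in MCT 270 and 1.06 in MCT 330, again lowest in MCT 330 and highest in MCT 270. Neither -0.47 ± 0.20 against control (adjusted p = 0.134) nor -0.65 ± 0.20 against MCT 270 (adjusted p = 0.0791) passed, and with scaling by the median they were -0.084 and -0.30. The dimmer probe read 0.77 and 0.37 in control, 0.36 and 0.54 in MCT 270 and 0.67 in MCT 330, so that its MCT 330 value lay between the control samples.

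Thra encodes thyroid hormone receptor alpha, the form that predominates in heart, bone and brain. It measured 0.32 and 0.41 in control, -1.58 and -1.20 in MCT 270 and -1.94 in MCT 330. Every treated sample lay more than 1 unit below both controls, at the lower dose as at the higher. The log2 fold change was -2.30 ± 0.24 in MCT 330 against control (95% interval -2.93 to -1.68; adjusted p = 0.00885), a 4.94-fold lower level. In MCT 270 against control it was -1.76 ± 0.20, with an unadjusted p of 0.000388 and an adjusted p of 0.0811. That value ranked 118 among 24808 genes by p, in a comparison in which no gene passed. Within the scan session that held 2 control and 2 MCT 270 arrays the difference was -1.76. Between the single arrays of the other session it was -1.61. Those arrays repeat samples of the first session, so that value is not separate evidence. In 7 of 23 alternatives run the MCT 270 difference passed, 3 of which counted all 9 arrays as samples, with adjusted p between 3.76e-05 and 0.295 over all 23. Between the doses the log2 difference was -0.54 ± 0.24 (adjusted p = 0.170), and it was -0.11 after normexp and -0.19 with scaling by the median. The other Thra probe was well above background on 2 of 3 MCT 330 arrays and on no control or MCT 270 array. That probe was not tested. It read -6.02 and -6.34 in control, -5.65 and -5.96 in MCT 270 and -5.33 in MCT 330, highest where the tested probe was lowest. On the mouse genome Thra overlaps Nr1d1, the clock repressor REV-ERB alpha, in the RefSeq table. Nr1i3, Nr1h3, Rara and Thrb also overlap a protein-coding gene there (Tomm40l, Acp2, Gm46294 and LOC115488350), whose values are not given here. Nr1d1 read -0.60 and -1.04 in control, -1.18 and -0.10 in MCT 270 and -0.95 in MCT 330, with a log2 difference of -0.13 ± 0.50 in MCT 330 against control (adjusted p = 0.860).

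Thrb encodes the thyroid hormone receptor beta, the main form in hepatocytes. It measured -1.11 and -1.22 in control, -0.53 and -0.54 in MCT 270 and -1.71 in MCT 330. MCT 270 was the highest group and MCT 330 the lowest, with no overlap between groups. The log2 difference was 0.63 ± 0.15 in MCT 270 against control (unadjusted p = 0.0105, adjusted p = 0.150), -0.55 ± 0.19 in MCT 330 against control (adjusted p = 0.0847) and -1.18 ± 0.19 in MCT 330 against MCT 270 (adjusted p = 0.0237). The difference from control was -0.28 after normexp and -0.16 with scaling by the median. That between the doses had an adjusted p of 0.0547 with scaling by the median, 0.0730 with no filter on dim probes and 0.136 without MCT 270 replicate 1. The dimmer Thrb probe did not set MCT 270 apart, with -0.995 and -1.33 in control, -1.13 and -1.14 in MCT 270 and -2.66 in MCT 330. On that probe the fall in MCT 330 passed against control (-1.50 ± 0.23, adjusted p = 0.0141) and against MCT 270 (-1.53 ± 0.23, adjusted p = 0.0238).

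Nr3c1 encodes the glucocorticoid receptor. Its brightest probe read 3.64 and 3.74 in control, 3.44 and 3.75 in MCT 270 and 2.96 in MCT 330, where it was lowest. The log2 difference in MCT 330 against control was -0.73 ± 0.23 (unadjusted p = 0.0250, adjusted p = 0.0652), and -0.35 with scaling by the median. Its dimmer probe moved in the opposite direction, with -2.54 and -2.75 in control, -1.75 and -1.33 in MCT 270 and -0.38 in MCT 330. Its fold changes of 2.26 ± 0.26 against control (adjusted p = 0.00971 over all probes) and 1.16 ± 0.26 against MCT 270 (adjusted p = 0.0431) passed. The spot of that probe on MCT 330 replicate 1 was marked as an outlier by the scanner software, so its MCT 330 value rests on replicates 2 and 3.

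Esr1 encodes the oestrogen receptor alpha. It gave a dim signal, with -5.15 and -4.11 in control, -3.49 and -3.14 in MCT 270 and -3.52 in MCT 330, and all treated samples lay above both controls. No comparison passed. The log2 difference was 1.32 ± 0.39 in MCT 270 against control (unadjusted p = 0.0213, adjusted p = 0.195) and 1.11 ± 0.47 in MCT 330 against control (adjusted p = 0.135). Without control replicate 1 these were 0.79 and 0.59, and after normexp 0.47 and 0.59. A dimmer Esr1 probe was not well above background on any control array and was so on all 3 arrays of each treated group, so it entered the test through the groups in which it was higher. It averaged -3.85 in MCT 270 and -6.18 in control, which gives a level at least 2.87-fold higher, where the bound sets the treated mean against the higher of each control array's dimmest detected signal and the probe's own. In MCT 330 the bound was at least 1.15-fold higher (-5.18 in MCT 330 and -6.18 in control). Another Esr1 probe was well above background on 1 control array, 2 MCT 270 arrays and no MCT 330 array, and was not tested. Its values were -5.27 and -6.14 in control, -5.87 and -5.20 in MCT 270 and -6.61 in MCT 330, where it was lowest.

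**Figure D2:**
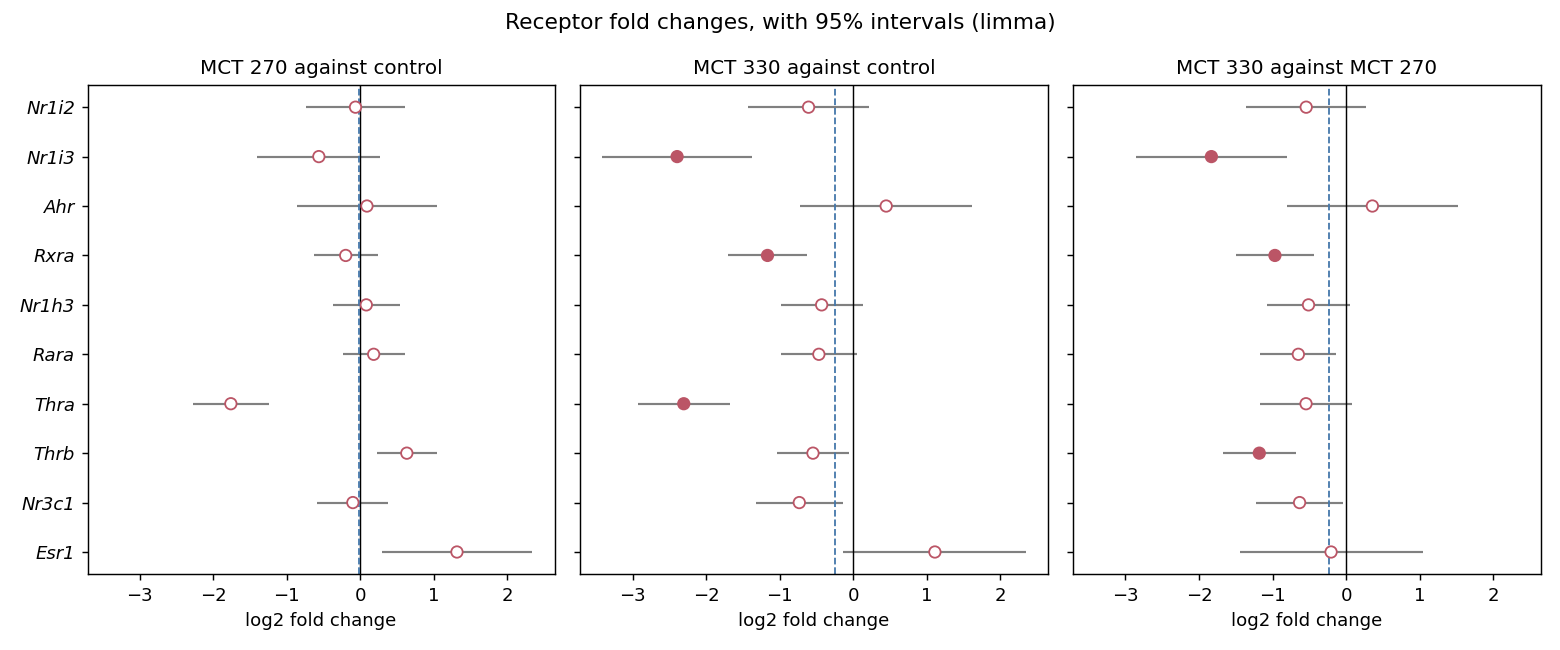
Log2 fold changes of the 10 receptors in the 3 comparisons, with 95% intervals from the limma fit as bars; filled points passed at an adjusted p under 0.05, and the dashed line is the median of all genes. Filled points stand only at Nr1i3, Rxra and Thra in MCT 330 against control and at Nr1i3, Rxra and Thrb in MCT 330 against MCT 270.

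Of the 10 receptors, 8 had 2 probes that could be tested, and the probes did not always show the same change. In MCT 330 against control the signs were opposite for 3 of 8 receptors, Nr3c1, Rxra and Rara, and the gap was over 1 log2 unit for Nr3c1 (2.99), Ahr (1.91) and Rxra (1.46). Over the 4124 genes with 2 tested probes, 29.8% had opposite signs and 24.5% a gap over 1 unit, with a median gap of 0.50. The gap of Nr3c1 exceeded that of 98.6% of these genes, that of Ahr 93.4% and that of Rxra 87.5%. Nr1i3 (0.27), Esr1 (0.11) and Nr1h3 (0.04) had gaps under the median. Probe sequences and transcript positions were not used here.

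**Figure D3:**
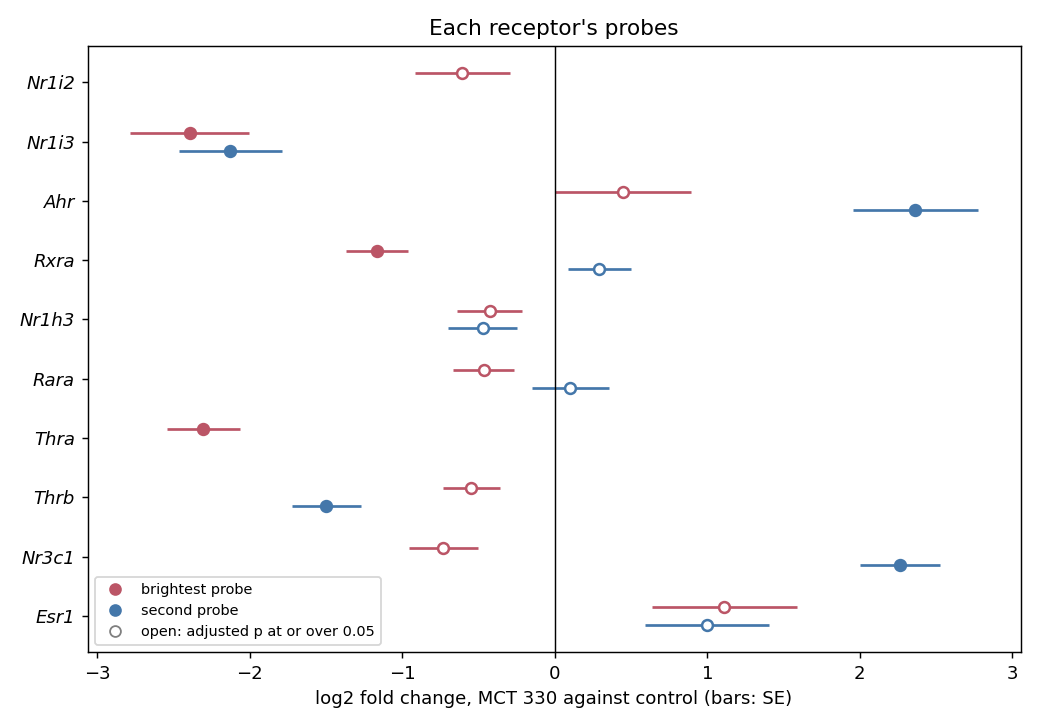
Log2 fold change in MCT 330 against control for each tested probe of each receptor, with bars of 1 SE; filled points passed at an adjusted p under 0.05 in a fit over all probes. The probes of Nr1i3 lie side by side at -2.39 and -2.13, while those of Nr3c1 lie at -0.73 and 2.26.

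As a description over the 5 samples, the gene whose centred profile lay nearest was found for each receptor among all genes tested, by Euclidean distance in log2 units. For Nr1i3 it was Cyp2e1, the ethanol-inducible P450 of pericentral hepatocytes, at 0.18, with 8.37 and 8.40 in control, 8.33 and 7.61 in MCT 270 and 6.07 in MCT 330. Cyp2e1 was picked over these same samples, so its matching split between the MCT 270 samples follows from that choice. For Nr1i2 it was Gstt1, a glutathione S-transferase, at 0.08. Thra lay nearest to Unc13b at 0.26, and Thrb to Pafah2 at 0.09. For the others these were Xylt1 for Rxra (0.07), Nisch for Nr1h3 (0.06), Casd1 for Rara (0.06), Slc2a4rg-ps for Nr3c1 (0.07), Sbk3 for Ahr (0.21) and Miox for Esr1 (0.28).

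Genes known as targets of the receptors were then read from lists, many of whose members respond to more than 1 receptor. In MCT 270 against control no member of any list passed, as no gene did. In MCT 330 against control, 8 of 32 targets of PXR and CAR were lower and 1 higher, with a median log2 fold change of -0.64. Of all genes, 23.9% were lower and 9.51% higher in this comparison, with a median of -0.25, so that the count lay near that of genes at large. The Cyp2c genes led: Cyp2c29 read 6.43 and 6.54 in control, 6.19 and 6.14 in MCT 270 and 4.85 in MCT 330 (-1.63 ± 0.19, adjusted p = 0.00945). Cyp2c50, Cyp2c37 and Cyp2c54 had log2 fold changes of -2.35, -2.41 and -2.45. These P450 genes are related members of the Cyp2c family, and whether their probes share signal was not tested. Cyp2b10, the classical CAR target, read 2.98 in MCT 330 and 2.26 and 5.23 in control, a difference that did not pass (-0.77 ± 1.22, adjusted p = 0.654).

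Of 11 tested AhR targets, 2 were higher and 2 lower in MCT 330 against control, beside 9.51% higher and 23.9% lower over all genes. Cyp1a2, a P450 that oxidises caffeine and aromatic amines, read 3.53 and 3.16 in control, 2.52 and 2.69 in MCT 270 and 0.52 in MCT 330 (-2.83 ± 0.25, adjusted p = 0.00874). Ugt1a6b, a glucuronosyltransferase, fell by 1.03 on the log2 scale (adjusted p = 0.0302). Tiparp, which ADP-ribosylates and restrains the receptor, rose by 2.25 ± 0.21 (adjusted p = 0.00875). Nqo1, a quinone reductase that is also an Nrf2 target, rose by 2.00 ± 0.28 (adjusted p = 0.0121), with -2.22 and -1.72 in control, 0.06 and -0.11 in MCT 270 and 0.03 in MCT 330. Cyp1a1, the most used readout of the receptor, read -3.29 in MCT 330 and -3.96 and -3.90 in control and did not pass (0.64 ± 0.20, adjusted p = 0.0628).

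Of 18 LXR targets, 5 were lower and 2 higher in MCT 330 against control, with a median of -0.66, shares near the 23.9% lower and 9.51% higher of all genes (median -0.25). Cyp7a1, the rate-limiting enzyme of bile acid synthesis and an LXR target in mice, read 1.36 and 2.43 in control, 3.24 and 2.90 in MCT 270 and -1.54 in MCT 330 (-3.43 ± 0.48, adjusted p = 0.0122). Lpcat3, which builds polyunsaturated phospholipids, fell by 1.39, and Abcg8, of the sterol exporter, fell by 1.63. Scd2, a fatty acid desaturase, rose by 1.26. Of 12 RAR targets, 5 were lower and 2 higher, against the same 23.9% and 9.51%, and Stra6, 1 of the 5, was detected on only 1 of 3 control arrays. Lrat, which esterifies retinol, chiefly in stellate cells, and is also among the stellate cell markers above, fell by 4.45 ± 0.41 (adjusted p = 0.00874). Dhrs3, a retinal reductase, fell by 1.27 and Rarres1 fell by 2.28, while Tgm2, a transglutaminase, rose by 2.67 (adjusted p = 0.0120).

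Of 13 thyroid hormone targets, 4 were lower and none higher in MCT 330 against control, with a median of -1.15, where 23.9% of all genes were lower and their median was -0.25. Thrsp, which promotes fat synthesis, read 4.50 and 4.99 in control, 5.71 and 4.92 in MCT 270 and 2.71 in MCT 330 (-2.03 ± 0.42, adjusted p = 0.0249). G6pc, of glucose output, fell by 3.76 and Cpt1a, of fatty acid oxidation, fell by 1.28. Dio1, the deiodinase that is a common readout of thyroid hormone action in liver, did not pass (-1.15 ± 0.35, adjusted p = 0.0643).

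Of 29 glucocorticoid targets, 6 were higher and 1 lower in MCT 330 against control, and the list's median was -0.45, opposite in sign to most of its calls. Over all genes 9.51% were higher and 23.9% lower. The list's direction did not hold without MCT 270 replicate 1, nor with MCT 330 replicate 1 as a separate sample. In the latter setting 7 were higher and 8 lower, where 4587 of all genes were higher and 9195 lower. The 6 were Orm1 (1.61 ± 0.21, adjusted p = 0.0113) and Lcn2 (5.27 ± 0.77, adjusted p = 0.0130), which are also acute phase genes, Cebpd (1.195), Cdkn1a (2.48), Pik3r1 (1.43) and Ddit4 (1.85), and the lower one was G6pc. Lcn2 is also expressed by neutrophils, whose markers summed higher in the same sample. Fkbp5 and Tsc22d3, direct targets in most tissues, had log2 differences of -0.78 (adjusted p = 0.158) and -1.33 (adjusted p = 0.0526) and did not pass. Of 8 oestrogen targets, known mainly from uterus and breast cells, 4 were lower, beside 23.9% of all genes: Greb1 (-1.92 ± 0.20, adjusted p = 0.00876), Cxcl12 (-1.72), Igf1 (-0.88) and Tff1. Tff1 was not well above background on any MCT 330 array and was so on only 1 of 3 control arrays. It averaged -7.19 in MCT 330 and -5.85 in control, so the size of that difference is uncertain. It was detected on all arrays of MCT 270 and entered the test through that group alone; the other 3 were detected on all arrays.

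**Figure D4:**
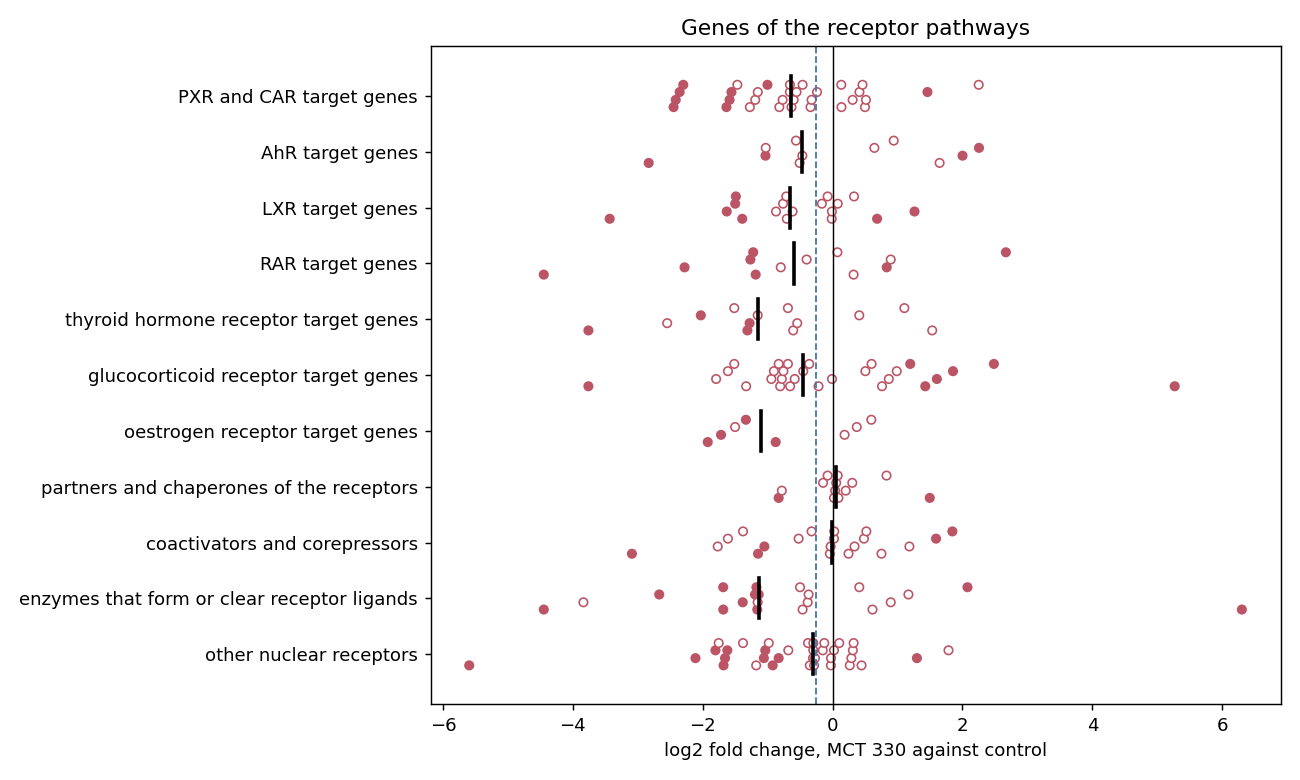
Log2 fold changes in MCT 330 against control of the tested genes of each list, 1 point a gene; filled points passed at an adjusted p under 0.05, thick bars are list medians and the dashed line is the median of all genes. List medians lie between -1.15 for thyroid hormone targets and 0.06 for partners and chaperones.

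Of 13 partners and chaperones, 1 was higher and 1 lower in MCT 330 against control, with a median of 0.06, against 9.51% higher, 23.9% lower and a median of -0.25 over all genes. Hsp90aa1, the inducible HSP90 that holds steroid receptors and AhR ready for ligand, rose by 1.50 ± 0.35 (adjusted p = 0.0332), and Rxrb, another RXR, fell by 0.83 (adjusted p = 0.0472). Arnt, the partner of AhR, read 1.70 in MCT 330 and 1.32 and 1.47 in control and did not pass. Of 20 coactivators and corepressors, 2 were higher and 3 lower, with a median of -0.0042. With scaling by the median 4 were higher and 1 lower, where 54.6% of the calls over all genes were higher. Ppargc1b, a coactivator of lipid genes, read -2.63 and -2.15 in control, -3.22 and -2.89 in MCT 270 and -5.48 in MCT 330 (-3.09 ± 0.30, adjusted p = 0.00876). Ncoa1 and Ncoa3, coactivators of the p160 family, fell by 1.15 and 1.05, while Nrip1, a corepressor, and Tbl1x rose by 1.59 and 1.84.

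Of 21 enzymes that form or clear receptor ligands, 9 were lower and 2 higher, with a median of -1.14, where 23.9% of all genes were lower and 9.51% higher. With scaling by the median 4 were lower and 3 higher, where 54.6% of the calls over all genes were higher. Ch25h, which makes 25-hydroxycholesterol, an LXR ligand, was not well above background on any control array and was so on all treated arrays, with -4.13 and -3.14 in MCT 270 and -0.82 in MCT 330. Its level was at least 23.6-fold higher in MCT 330 than in control. It entered the test only through the treated groups, so its place among the 2 higher genes was partly set by the filter. Bco1, which cleaves beta-carotene to retinal, rose by 2.08. Dhrs9 and Rdh16, which oxidise retinol and steroids, fell by 1.38 and 1.19.

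Of 35 other nuclear receptors tested, 10 were lower and 1 higher in MCT 330 against control, and the median was -0.30, both near the 23.9% lower and the median of -0.25 of all genes. Nr1h5, FXR beta, a lanosterol receptor in mice, read -0.85 and -0.87 in control, -1.71 and -2.37 in MCT 270 and -6.46 in MCT 330 (-5.59 ± 0.32, adjusted p = 0.00874). It was well above background on only 1 of 3 MCT 330 arrays, so the size of that difference is uncertain. Ppara, the receptor of fasting lipid oxidation, fell by 1.66 (adjusted p = 0.00937). Nr2f1 fell by 1.80 and Nr2f2 fell by 1.68. Rxrb is counted here too. Nr4a1, an early response gene, rose (1.30 ± 0.20, adjusted p = 0.0138).

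These list counts moved with the treatment of single arrays and with the scaling. Without MCT 270 replicate 1, which adds to the estimate of spread, 3736 of all genes passed in MCT 330 against control, and the lower and higher counts became 7 and 0 for PXR and CAR, 2 and 1 for RAR, 3 and 2 for glucocorticoid, 4 and 2 for ligand enzymes and 6 and 0 for other nuclear receptors. With MCT 330 replicate 1 as a sample of its own, chosen after the values were seen, they became 15 and 4 for PXR and CAR, 8 and 2 for thyroid hormone, 8 and 7 for glucocorticoid and 13 and 5 for ligand enzymes. In that setting 9195 of all genes were lower and 4587 higher, so calls rose among genes at large too. Leaving that array out gave 8 and 1, 4 and 0, 1 and 6, and 8 and 2. Under scaling by the median, where the median of all genes was 0.13, that of other nuclear receptors turned to 0.08 and that of coregulators to 0.38. Those of the 7 target lists lay between -0.77 and -0.07. Lower and higher counts with that scaling were 6 and 2 for PXR and CAR, 1 and 3 for AhR and 5 and 2 for LXR. They were 2 and 2 for RAR, 3 and 0 for thyroid hormone, 1 and 7 for glucocorticoid and 2 and 1 for oestrogen targets. Of the calls over all genes, 54.6% were then higher.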

How the data were processed

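Liver mRNA was measured on 9 Agilent 1-colour Cy3 arrays, 3 per group. The deposited intensity of each spot is the scanner software's processed signal, background-subtracted and detrended with Agilent Feature Extraction 11.0.1.1 but not scaled between arrays, per the file headers. Control spots, spots with an outlier mark and 215 stray spots of MCT 330 replicate 1 were left out, spots of a probe were averaged after log2, and the 75th percentile of each array was subtracted. No spot was saturated, 63.0% to 80.3% of probes on an array were well above background, and the 75th percentile signal was 498.2 to 703; the number of arrays limits the precision. A gene took its brightest probe, and a probe was tested where at least 50% of its spots were well above background on every array of at least 1 group. Of 39429 probes, 27234 got a symbol through their accession in the RefSeq table and 12195 kept the file's name. One limma 3.58.1 fit (R 4.3.3) over 3 groups and 5 samples gave all comparisons, with Benjamini-Hochberg adjustment over 24808 genes (29931 probes in the fit of single probes) and a threshold of 0.05. It was tested on simulated data. The receptors and gene lists were chosen with earlier results of these data known. Of each list, up to 4 genes with the smallest p in MCT 330 against control were named, and the nearest gene of each receptor; Cyp2b10, Cyp1a1, Dio1, Tsc22d3, Arnt, Pik3r1, Ddit4, G6pc among glucocorticoid targets, Ncoa3, Bco1, Nr4a1 and Nr1d1 were added after their values were seen. A gene of the thyroid hormone list is not reported here by name. Alternatives covered sample counting, scan session, scaling, background correction, the filter, the probe rule, limma's trend and each array left out.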

Additional observations from a re-analysis of the deposited data

How the results depend on the processing

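Counts for MCT 270 against control, MCT 330 against control and MCT 330 against MCT 270 are given in that order. With all 9 arrays as separate samples, 9571, 18033 and 16101 genes and 5, 9 and 8 receptors passed, and with scan session as a random block (correlation -0.19) 8910, 18742 and 16957 genes and 5, 9 and 8 receptors; these fits count repeat arrays as samples. Arrays of the same replicate number correlated only weakly across groups (r of deviations 0.00943 to 0.0784), although 9 of 9 arrays correlated best with their own number. Whether the numbers pair the samples was therefore not settled. The replicate block on 9 arrays gave 9369, 17902 and 15954 genes and 4, 9 and 8 receptors. With MCT 330 replicate 1 as a separate sample, chosen after seeing the data, the counts were 1781, 13782 and 11290 genes and 2, 8 and 7 receptors. In MCT 270 against control, 504 genes and 1 receptor passed after normexp, 31 genes with scaling by the median, 408 and 1 with detection on all 9 arrays, 612 and 1 with limma's trend, and 10 genes within the first scan session. In MCT 330 against control, 9349 genes and 5 receptors passed with the trend, and 3752 genes and 2 receptors with no filter on dim probes. In MCT 330 against MCT 270, 0 receptors passed with scaling by the median, and 0 genes and 0 receptors with no filter. Leaving out each array gave 0 to 0, 3736 to 8446 and 0 to 7187 genes and 0 to 0, 2 to 3 and 0 to 3 receptors, the low ends without MCT 270 replicate 1, the only array of its sample.

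Apart from Rxra in MCT 330 against control, receptors whose sign turned had not passed. Ahr in MCT 270 against control was -0.11 in each of the 9-array fits and -0.41 to 0.11 with single arrays left out, where Nr1h3 was -0.032 to 0.16 and Nr3c1 -0.15 to 0.057. Esr1 in MCT 330 against MCT 270 was 0.19, 0.12 and 0.15 after quantile, normexp and median scaling. With the mean of its probes Nr3c1 was 0.50, 0.76 and 0.26, and with the dimmer probe 1.101, 2.26 and 1.16. Rara with the dimmer probe was -0.12, 0.10 and 0.22. Rxra in MCT 270 against control was 0.057 with the mean and 0.31 with the dimmer probe, and the called fall of Rxra in MCT 330 against control was 0.29 with the dimmer probe. Nr1i3 and Rxra in MCT 330 against MCT 270 each passed in 18 of 23 alternatives, Thrb in 20 of 23, and Thra in MCT 330 against control in 22 of 22. The cause was not tested. With 1 MCT 330 sample, taken to vary like the other groups, and dim Esr1 probes near background, differences of these sizes may go undetected.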
